A study of Mus musculus with 6 samples.

Results

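The report concerns 10 immediate early genes, namely the AP-1 subunit genes Fos, Fosb, Jun, Junb and Jund, the zinc finger genes Egr1 and Egr2, the orphan nuclear receptor genes Nr4a1 and Nr4a2, and the phosphatase gene Dusp1. They were chosen by symbol from 20352 genes with a probe set annotated to exactly 1 gene. Expression was measured on 6 arrays of mouse bone marrow cells sorted by the gate called KLSCD34- in the labels, which takes cells with c-Kit and Sca-1 but without lineage markers or CD34 on the surface. There were 3 arrays from beta-catenin floxed, Vav-Cre positive mice, called floxed, and 3 from controls. Vav-Cre recombines floxed alleles in blood-forming cells. The labels give no alleles for the controls, no age and no sex, and nothing in them tells if each array held 1 animal or a pool. The p-values therefore cover the spread among these arrays alone, part of which can be technical.

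Immediate early genes are transcribed within minutes of a growth factor, cytokine or stress signal and need no new protein for it. Kinases of the MAPK pathway activate factors already present on the DNA, such as SRF with its ELK partners and CREB, and the products (AP-1 dimers of a FOS and a JUN protein, EGR1, NR4A1) then regulate later genes. Most of these transcripts decay fast, so their level follows recent signalling, and handling of tissue is also known to raise them. In blood stem cells, EGR1 and NR4A1 are known as regulators of quiescence and JUNB as a brake on myeloid expansion in mice.

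The promoters of Fos, Fosb, Dusp1 and Nr4a1 show one of the elements such signals use. The 250 bases before the annotated start are printed 5′ to 3′ on the strand of the gene, from RefSeq on GRCm38.p6. The window of Fos lies at chr12:85473640-85473889 on the plus strand, that of Fosb at chr7:19310046-19310295 on the minus strand, that of Dusp1 at chr17:26508473-26508722 on the minus strand and that of Nr4a1 at chr15:101266596-101266845 on the plus strand. Capitals mark the cAMP response element (CRE, TGACGTCA), its half-site TGACG on either strand, and TATAAA.
Fos: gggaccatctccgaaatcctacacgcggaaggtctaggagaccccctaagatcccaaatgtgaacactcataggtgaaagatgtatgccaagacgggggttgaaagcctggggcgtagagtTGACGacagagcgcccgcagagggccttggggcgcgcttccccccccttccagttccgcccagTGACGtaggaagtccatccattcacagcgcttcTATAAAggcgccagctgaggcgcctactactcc
Fosb: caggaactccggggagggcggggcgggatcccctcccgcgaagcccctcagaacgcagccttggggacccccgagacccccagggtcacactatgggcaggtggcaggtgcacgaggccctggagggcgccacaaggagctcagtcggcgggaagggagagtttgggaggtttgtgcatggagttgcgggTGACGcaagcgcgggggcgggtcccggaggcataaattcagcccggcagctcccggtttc
Dusp1: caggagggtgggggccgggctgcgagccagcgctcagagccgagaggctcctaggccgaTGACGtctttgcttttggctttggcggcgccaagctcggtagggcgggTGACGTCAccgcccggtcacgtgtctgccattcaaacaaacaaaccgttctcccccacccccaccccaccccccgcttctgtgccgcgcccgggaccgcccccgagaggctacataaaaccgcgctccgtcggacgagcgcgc
Nr4a1: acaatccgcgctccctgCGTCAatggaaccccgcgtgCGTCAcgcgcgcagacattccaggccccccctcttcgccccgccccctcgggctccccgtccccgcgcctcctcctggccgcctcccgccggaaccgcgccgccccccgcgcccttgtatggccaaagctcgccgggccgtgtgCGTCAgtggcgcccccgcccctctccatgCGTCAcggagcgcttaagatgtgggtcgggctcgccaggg
Fos held 2 CRE half-sites and a TATAAA, Fosb held 1 half-site, Nr4a1 held 4, and Dusp1 held a full CRE, which contains 2 half-sites by its symmetry, and a further half-site. The tables held promoters of 9 of the 10 genes (not of Egr1), with several starts for Egr2. A half-site stood in a window of 7 of these 9 genes, against 17.8% of all 32851 promoter windows, and a full CRE in 1 of 9 against 1.55%. A gene was counted if any of its windows held the element, while the shares here and below are of single windows, so the units differ. Jun and Jund had none of these half-sites in the window. Their Pearson r over the arrays to the mean of the other genes of the set was 0.85 and 0.96. It was 0.93 for Fos, 0.89 for Fosb, 0.95 for Dusp1 and 0.56 for Nr4a1. A link between half-sites and co-variation was not tested. An AP-1 element (TGANTCA, either strand) stood in 0 of 9 against 6.75%, the CArG box bound by SRF in 1 of 9 (Egr2) against 1.47%, and TATAAA in 2 of 9 against 12.4%. Only exact letters within the 250 bases were counted. Elements farther from the start or with other letters were missed, so a count of 0 does not mean that a gene lacks the element. The half-site was added to the search after the windows had been read, it contains a CpG, and a match of letters is a description and not a site of binding.

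The values were log2 expression values per probe set, and array medians lay between 7.56 and 7.65. Ctnnb1, the beta-catenin gene, had 10.53, 10.30 and 10.68 log2 on floxed replicates 1, 2 and 3, against 11.22, 11.52 and 11.41 on control replicates 1, 2 and 3, without overlap (log2 fold change −0.88, SE 0.14, limma adjusted p = 0.667). Of 16 tested Ctnnb1 probe sets, 5 passed on the lower side in floxed arrays (log2 fold changes −6.90 to −2.51), which checks the labels at the floxed gene. Kit, a gene of the gate, had 11.73 ± 0.11 in floxed and 11.84 ± 0.058 log2 in control arrays, and Cd34 had 12.65 ± 0.035 and 12.68 ± 0.033 (SD, n = 3 each), although the gate is CD34 negative; the gate reads surface protein and the array RNA. Ly6a, the gene of Sca-1, had 11.275 ± 0.25 in floxed and 11.292 ± 0.52 log2 in control arrays (SD, n = 3 each). No probe set was called absent, since detection calls are not used here. Control replicate 3 correlated least with the other arrays (median Pearson r across genes 0.915) and floxed replicate 3 correlated best (0.962).

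No difference between floxed and control arrays beyond the spread of the replicates was found for the 10 genes, but 9 of them were lowest on 1 array, floxed replicate 3. Over all 14586 genes tested, 8.1% had their lowest value on that array. The array was singled out after the values had been seen. Several probe sets of Jun, Nr4a1 and Nr4a2, given below, were lowest on other arrays. Floxed replicate 2 was the highest of the 3 floxed arrays for 10 of 10 genes, against 31.3% of all genes, and 9 of 10 followed the order replicate 2, replicate 1, replicate 3 within the floxed group, against 14.1%. Among the controls, replicate 2 was the lowest for 7 of 10 genes, against 18.1%. Most of the genes thus shared the order of the floxed arrays and the lowest control array, but not the order of all controls. On control replicates 1, 2 and 3, Jun had 10.98, 10.26 and 10.45 log2, while Nr4a1 had 8.19, 8.70 and 8.91. The floxed counts in part restate the low values of floxed replicate 3. The orders counted and control replicate 2 were likewise picked from the values of the 10 genes, so these shares are a description.

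Each gene was measured by the median of its probe sets that passed a filter on dim signal, a mean of at least 7.60 log2 over the 6 arrays. The 10 genes had 55 probe sets, of which 38 passed, and every gene kept at least 1. All 38 had a mean past the filter in both groups, so none was kept through 1 group alone. Arrays of 1 gene are compared below, but not levels between genes, because probe sets differ in brightness.

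**Figure D1:**
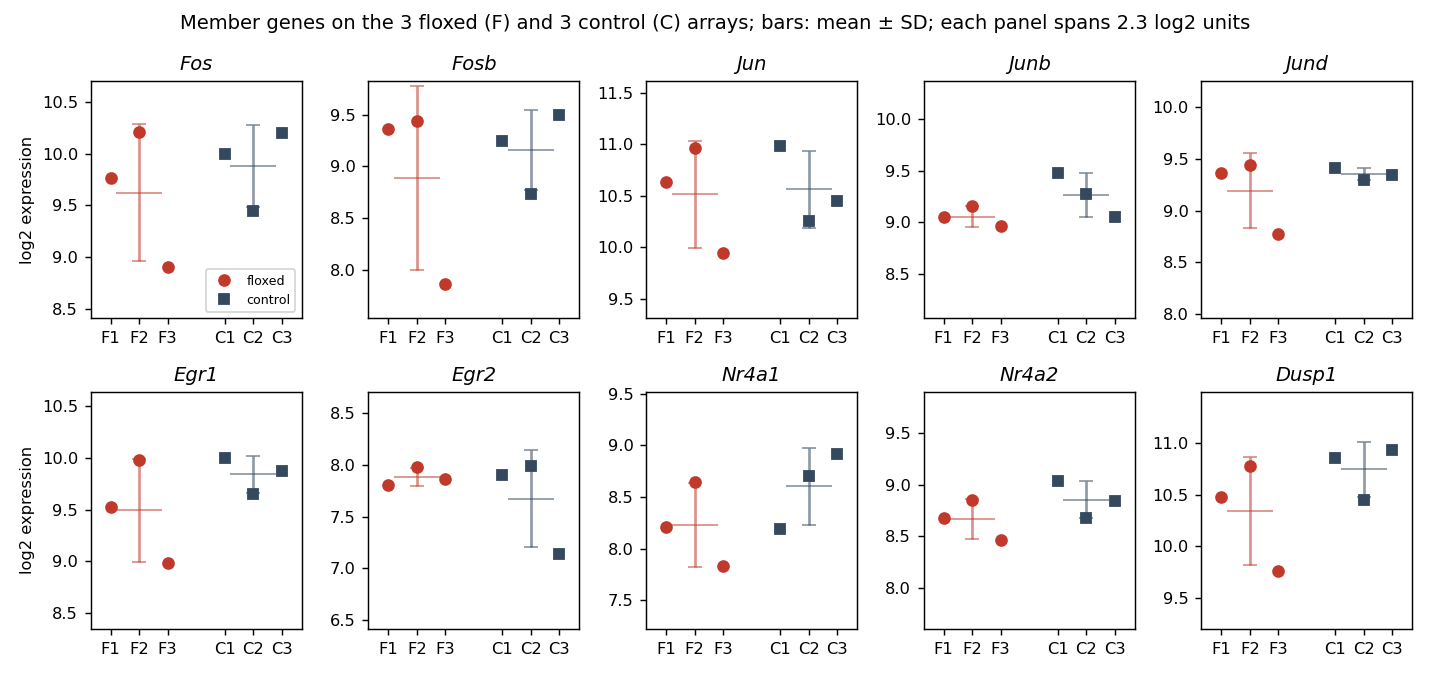
Log2 expression of the 10 genes on each floxed array (F1 to F3, red circles) and each control array (C1 to C3, dark squares), with the mean and SD of each group. Floxed replicate 3 is the lowest point for every gene but Egr2, and the groups overlap in every panel.

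Fos, which forms AP-1 with a JUN protein, had 9.76, 10.21 and 8.90 log2 on floxed replicates 1, 2 and 3, against 9.998, 9.44 and 10.21 on control replicates 1, 2 and 3. Fosb, its close relative, had 9.36, 9.44 and 7.86 on the floxed arrays, against 9.25, 8.74 and 9.50 on the controls. For both genes floxed replicates 1 and 2 lay within or near the range of the controls and replicate 3 lay below it, by 0.54 for Fos and 0.88 for Fosb relative to the lowest other array. The log2 fold change, floxed minus control, was −0.26 (SE 0.30, 95% confidence interval −0.92 to 0.40) for Fos and −0.28 (SE 0.37, interval −1.09 to 0.54) for Fosb. Both had a limma adjusted p of 0.999, and exact permutation tests (two-sided) gave p = 0.7 for Fos and p = 0.8 for Fosb, where this design allows no p below 0.1.

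Jun, the core DNA-binding subunit of AP-1, had 10.63, 10.97 and 9.95 log2 on the floxed arrays, against 10.98, 10.26 and 10.45 on the controls. Jund, the subunit most often present at a steady level, had 9.36, 9.44 and 8.77 on the floxed arrays, against 9.42, 9.30 and 9.35 on the controls. Junb, which limits proliferation of myeloid cells in mice, had 9.05, 9.16 and 8.96 on the floxed arrays, against 9.48, 9.27 and 9.05 on the controls. The control values of Jund had an SD of 0.059 while floxed replicate 3 lay 0.52 below the lowest of the other arrays. Junb was the JUN gene with the smallest gap of that array, 0.086. Log2 fold changes were −0.048 (SE 0.25) for Jun, −0.16 (SE 0.18) for Jund and −0.21 (SE 0.16) for Junb, each with a limma adjusted p of 0.999.

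Egr1, a growth factor responsive activator, had 9.52, 9.98 and 8.98 log2 on the floxed arrays, against 10.004, 9.65 and 9.87 on the controls. Floxed replicate 3 lay 0.54 below the lowest other array, and floxed replicate 2 lay among the controls. The log2 fold change was −0.35 (SE 0.22, 95% confidence interval −0.84 to 0.15, limma adjusted p = 0.999). Egr2, known for myelination and for T cell tolerance, was the exception in the set. It had 7.81, 7.98 and 7.86 on the floxed arrays, against 7.90, 7.99 and 7.13 on the controls, so its lowest array was control replicate 3. Egr2 rested on 1 kept probe set of 5, at 7.78 log2 just above the filter, and its log2 fold change was 0.21 (SE 0.24, limma adjusted p = 0.999).

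Nr4a1, an orphan nuclear receptor that acts without a known ligand, had 8.21, 8.65 and 7.83 log2 on the floxed arrays, against 8.19, 8.70 and 8.91 on the controls. Nr4a2, its relative needed for dopamine neurons, had 8.67, 8.85 and 8.46 on the floxed arrays, against 9.04, 8.68 and 8.84 on the controls. Nr4a1 was thus about as low on control replicate 1 as on floxed replicate 1, and the spread of Nr4a2 over all 6 arrays was small, at 0.57 from lowest to highest. Log2 fold changes were −0.37 (SE 0.24) and −0.19 (SE 0.17), both with a limma adjusted p of 0.999.

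Dusp1 encodes a nuclear phosphatase that is induced with these genes and switches the MAP kinases off again. It had 10.48, 10.78 and 9.76 log2 on the floxed arrays, against 10.85, 10.44 and 10.94 on the controls. Floxed replicate 3 lay 0.69 below the lowest other array. Dusp1 had the lowest fold change of the set, −0.41 on the log2 scale (SE 0.23, 95% confidence interval −0.92 to 0.11, limma adjusted p = 0.999, two-sided exact permutation p = 0.3).

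As a set, 9 of the 10 genes had a log2 fold change below 0, against 45.8% of all genes tested, and their median was −0.23, against 0.018 over all genes. None of the 10 passed in limma (0% of all genes passed), 0 had an unadjusted p under 0.05, against 3.7% of all genes, and for 0 the groups did not overlap, against 8.44%. Without floxed replicate 3 the count below 0 was 5 of 10 and the median was −0.021. Without that array the log2 fold changes were 0.10 for Fos, 0.24 for Fosb, 0.24 for Jun, 0.047 for Jund, −0.17 for Junb and −0.12 for Dusp1. Egr1 then had −0.091, Egr2 0.22, Nr4a1 −0.17 and Nr4a2 −0.089. With all 6 arrays the confidence interval was widest for Fosb, −1.09 to 0.54, and narrowest for Junb, −0.55 to 0.13. The values of a gene are compatible with any difference inside its interval, which is not adjusted for the number of genes.

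**Figure D2:**
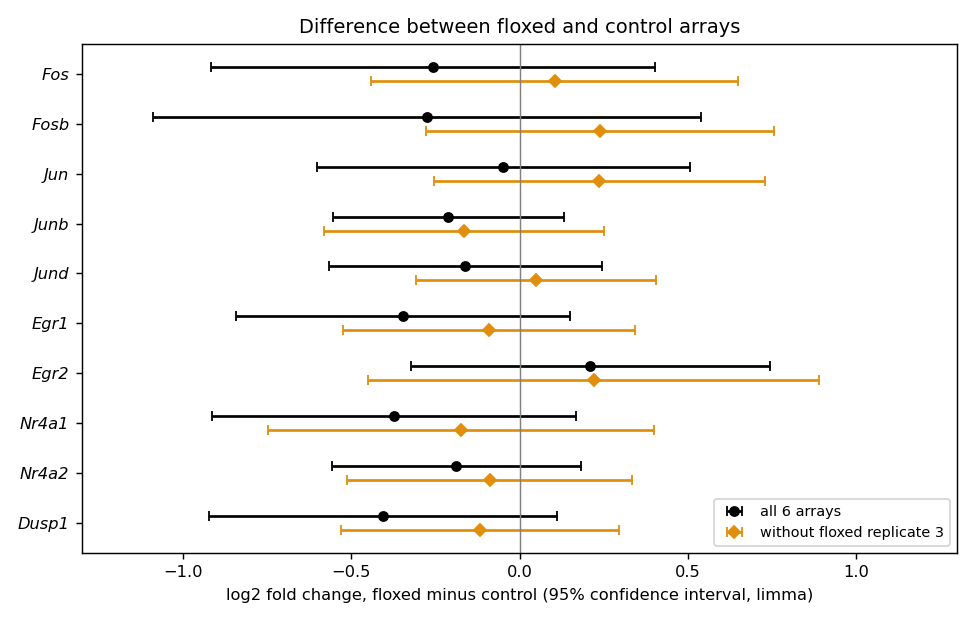
Log2 fold change of each gene, floxed minus control, with its 95% confidence interval from limma, for all 6 arrays (black circles) and without floxed replicate 3 (orange diamonds). Every interval spans 0, and Fos, Fosb, Jun and Jund lie above 0 without that array.

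The spread of these genes ran against that of the table. Their median SD was 0.46 log2 over the floxed arrays and 0.32 over the control arrays, against 0.14 and 0.23 over all genes. The SD was larger in the floxed group than in the controls for 8 of 10 genes, against 26.4% of all genes. Floxed replicate 3 lay at least 0.3 log2 below each of the other arrays for 7 of the 10, Fos, Fosb, Jun, Jund, Egr1, Nr4a1 and Dusp1, against 0.754% of all genes (110 genes). The smallest of these gaps was 0.31, for Jun. That array was singled out after the values had been seen, and a fixed cutoff favours genes of large spread. The contrast thus in part restates the SDs above. For Nr4a1 only 1 of 5 kept probe sets was lowest on that array, and for Jun 3 of 6. The mean deviation of the 10 genes from their own means was −0.0054, 0.25 and −0.56 log2 on floxed replicates 1, 2 and 3, against 0.22, −0.045 and 0.13 on control replicates 1, 2 and 3.

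The single probe sets show how evenly the measurements of a gene moved. Of the 38 kept probe sets, 24 were lowest on floxed replicate 3, against 8.28% of all 110361 probe sets tested. These were 3 of 3 for Fos, 4 of 4 for Fosb, 4 of 4 for Dusp1, 2 of 2 for Egr1, 3 of 4 for Jund, 3 of 6 for Jun, 1 of 2 for Junb, 3 of 7 for Nr4a2, 1 of 5 for Nr4a1 and 0 of 1 for Egr2. The widest range was in Fosb, where 1 probe set had 9.93, 10.58 and 7.56 log2 on the floxed arrays, against 10.47, 9.29 and 10.13 on the controls. The probe sets of Fos, Fosb and Dusp1 thus gave the same lowest array throughout. Those of Jun and Nr4a2 were divided, and most of those of Nr4a1 were lowest on another array.

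Probe sets of Jun and Jund disagreed between the groups. The first 3 of Jun in order of probe set number had log2 fold changes of 0.56, 0.16 and 0.36, and the last 3 had −0.056, −0.46 and −0.26. For Jund, 1 probe set had 8.54, 8.82 and 8.10 on the floxed arrays, against 7.87, 7.57 and 7.68 on the controls, so the groups did not overlap and the floxed values were higher (log2 fold change 0.78, SE 0.26, limma unadjusted p = 0.0106, adjusted p = 0.980). The other 3 of Jund had −0.24, −0.13 and −0.18. A probe set of Nr4a2 had 8.01, 8.66 and 8.30 on the floxed arrays, against 9.05, 8.68 and 9.10 on the controls, again without overlap (−0.62, SE 0.24, limma unadjusted p = 0.0248, adjusted p = 0.980). These were 2 of 38 probe sets without overlap, against 9.33% of all probe sets. In limma 0 of 38 passed (0.00453% of all, the 5 of Ctnnb1) and 3 had an unadjusted p under 0.05, against 4.38%. The floxed mean was the lower one for 32 of 38, against 41.1%.

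**Figure D3:**
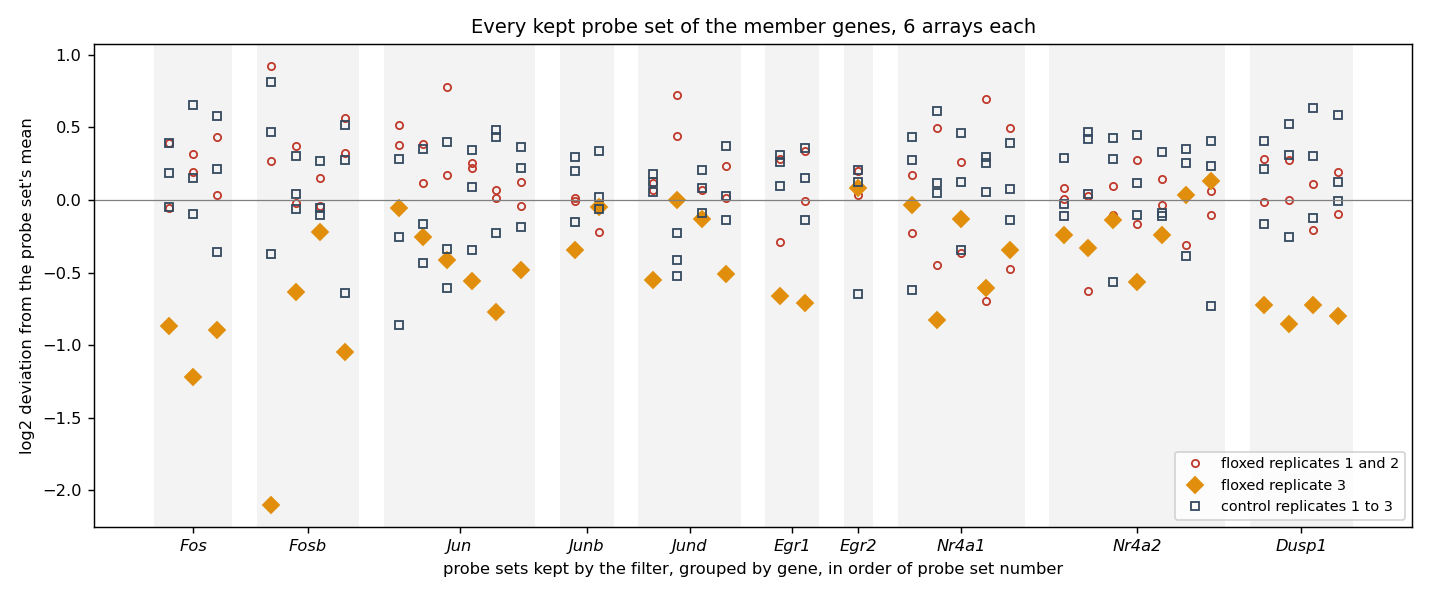
Deviation of each array from the mean of the probe set, in log2 units, for the 38 kept probe sets grouped by gene. Floxed replicate 3 (orange diamonds) is the lowest point in all probe sets of Fos, Fosb, Egr1 and Dusp1 and lies among the other arrays in several of Jun, Nr4a1 and Nr4a2.

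Across the 6 arrays the 10 genes form 45 pairs, of which 38 had a Pearson r above 0 and 19 an r of at least 0.8. The shares among pairs of all genes were not computed, so these counts and the r values below have no base rate. The median r was 0.71 and the median Spearman rho 0.60. The size depended on the probe sets used: the median r was 0.24 with the brightest probe set of each gene and 0.40 with the filter at the 75th percentile, which left 36 pairs without Egr2. No pair passed after Benjamini-Hochberg adjustment over the 45 (exact permutation tests over all 720 pairings, two-sided, smallest adjusted p = 0.0625 for r and 0.125 for rho), and 18 had an unadjusted exact p under 0.05 for r. All 7 negative pairs held Egr2, and the median over the 36 pairs without Egr2 was 0.81. Taken as deviations from the group means, the 45 pairs had a median r of 0.70, so the positive median was not a difference between the groups alone. These deviations include floxed replicate 3, and no pair passed on them (exact permutation tests, smallest adjusted p = 0.156). Without floxed replicate 3 the median was 0.38 over 5 arrays, with 32 pairs above 0, so the size of the common movement rested in part on that array.

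Some pairs kept their relation when the 2 arrays farthest from the median of the first gene were left out, and others did not; the pairs below were chosen after their values were seen. Fos and Dusp1 had r = 0.96 (exact permutation p = 0.00833, adjusted 0.0804) and rho = 0.83 (exact p = 0.0583, adjusted 0.263), and r = 0.84 without floxed replicate 3 and control replicate 2. Egr1 and Nr4a2 ranked the 6 arrays identically, with rho = 1 (exact permutation p = 0.00278, adjusted 0.125) and r = 0.94 (exact p = 0.00139, adjusted 0.0625), and r = 0.95 without floxed replicate 3 and control replicate 1. Jun and Jund had r = 0.84 (exact permutation p = 0.00278, adjusted 0.0625) and rho = 0.94 (exact p = 0.0167, adjusted 0.263), and r = 0.99 without the same 2 arrays. Those 3 pairs kept their direction and size on the remaining 4 arrays. Fos and Fosb had r = 0.96 (exact permutation p = 0.00833, adjusted 0.0804) and rho = 0.89 (exact p = 0.0333, adjusted 0.263), with r = 0.59 on the remaining 4. Fosb and Jund had r = 0.94 (exact permutation p = 0.0236, adjusted 0.0804) and rho = 0.60 (exact p = 0.242, adjusted 0.473), but r = −0.36 without floxed replicate 3 and control replicate 2, so that relation rested on those arrays.

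**Figure D4:**
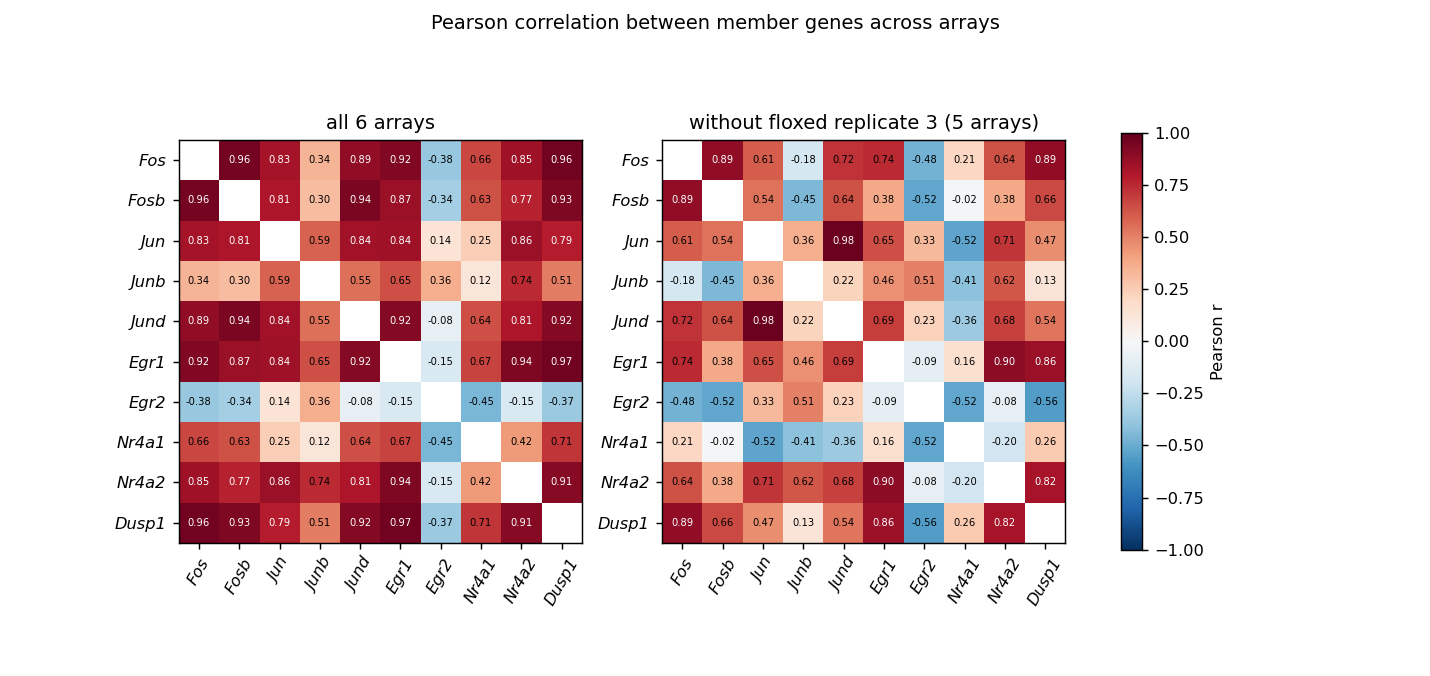
Pearson r between each pair of the 10 genes over all 6 arrays (left) and over the 5 arrays without floxed replicate 3 (right), red for positive and blue for negative. Most pairs are red on the left except those of Egr2, and the pairs of Nr4a1 and Junb with the AP-1 genes fade or turn on the right, while Fos with Dusp1, Jun with Jund and Egr1 with Nr4a2 stay high.

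Genes upstream of the set and other immediate early genes were described in lists. Among 27 measured upstream kinases and factors, 14 had a fold change above 0 and 13 below, 0 passed in limma, and 2 were lowest on floxed replicate 3. The JNK kinase gene Map2k7 had a log2 fold change of 0.24 (SE 0.13), the SRF co-activator gene Mrtfb −0.26 (SE 0.14) and the ribosomal S6 kinase gene Rps6ka3 0.23 (SE 0.13). The groups did not overlap for 4 of the 27, among them Map2k7 and Rps6ka3, against 8.44% of all genes. The stress kinase gene Mapk14 had 0.18 and Rps6ka1 −0.083. Of 12 dimer partners of AP-1 and related basic leucine zipper genes, 6 were above and 6 below 0, 0 passed, and only Batf2 (−0.25) was lowest on floxed replicate 3. Batf2 had 7.75 log2 there, against 7.77 on floxed replicate 1. Atf3 was listed but not tested. Atf4, which drives the integrated stress response, had 0.19, Atf2 had 0.033 and Mafg 0.13. Of 12 feedback inhibitors of the MAPK pathway, 5 were above and 7 below 0 and 0 passed. Among them the Sprouty gene Spry2 had 0.38 (SE 0.23), Spred1 had 0.15, and the ERK phosphatase genes Dusp6 and Dusp7 had −0.13 and −0.044. Dusp2, chosen after its values were seen, was the 1 of these 12 that was lowest on floxed replicate 3.

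Of 40 other immediate early genes measured, 13 were above and 27 below 0, with a median of −0.037, and 0 passed in limma. The lowest array was floxed replicate 3 for 7 of them, or 17.5%, against 8.1% of all genes; these were Ptgs2, Zfp36, Klf2, Errfi1, Plk3, Rhob and Per1, the last 5 of them named after their values were seen. Ptgs2, which encodes the inducible cyclooxygenase, had 8.14, 8.82 and 7.69 log2 on the floxed arrays, against 8.83, 8.79 and 9.38 on the controls. Its log2 fold change was −0.78 (SE 0.27, limma unadjusted p = 0.0159, adjusted p = 0.999), and the groups overlapped. Zfp36, whose product binds AU-rich elements and speeds the decay of such mRNAs, had 10.56, 10.71 and 10.13 on the floxed arrays, against 11.08, 10.52 and 10.67 on the controls (log2 fold change −0.29, SE 0.18). Both thus followed the set on floxed replicate 3. Their Pearson r to the mean deviation of the 10 genes, over the 6 arrays and with no test, was 0.80 and 0.89. The median of that r over the 40 genes was 0.071, against −0.093 over all genes. Nfkbia, which encodes an inhibitor of NF-kB, had a log2 fold change of 0.22, Myc had 0.10 and the kinase gene Pim1 had 0.021. Myc was the 1 gene of the 40 whose groups did not overlap, against 8.44% of all genes. The close relatives Egr3 and Nr4a3, chosen after their values were seen, had 8.24, 8.32 and 8.30 and 8.40, 8.64 and 8.66 on the floxed arrays, against 8.23, 8.51 and 8.22 and 8.52, 8.78 and 8.57 on the controls, so neither was lowest on floxed replicate 3.

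Heat shock genes are also known to respond to cell stress. Of 15 listed, 12 were measured; Hspa1a, Hspa1b and Hspb1, which are known to be strongly induced, were not tested here. Of the 12, 0 were lowest on floxed replicate 3, which in so short a list is close to the 8.1% of all genes. Their mean deviation was 0.042, −0.027 and 0.13 log2 on the floxed arrays, against 0.037, 0.0086 and −0.20 on the controls. The co-chaperone gene Dnaja1 had 9.31, 9.24 and 9.33 on the floxed arrays, against 8.78, 8.86 and 8.35 on the controls (log2 fold change 0.63, SE 0.17, limma unadjusted p = 0.00331, adjusted p = 0.999). Its groups did not overlap, as for 1 of the 12 genes, against 8.44% of all genes. The abundant chaperone genes Hspa8 and Hsp90ab1 had 0.051 and 0.085, and Dnajb4 had 0.19.

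Markers of other blood cells moved between the same arrays and are given beside the set. On floxed replicate 3, where the 10 genes were low, granulocyte and macrophage markers had a mean deviation of 0.25 log2, against −0.40 and −0.33 on floxed replicates 1 and 2 and 0.35, 0.51 and −0.37 on the controls. Of these 15 markers, 14 had a fold change below 0, 0 passed in limma and 0 were lowest on floxed replicate 3. The granule genes Ngp, Mmp8 and Lcn2 had −0.88, −1.03 and −0.62, and the lysozyme gene Lyz2 had −0.012. B cell markers had a mean deviation of 0.32 on floxed replicate 3, against −0.24 and −0.13 on the other floxed arrays and 0.66, 0.14 and −0.75 on the controls. For them 5 of 11 were above 0, with Dntt, an enzyme of early lymphoid cells, at 0.082, Cd79b at −0.068, Cr2 at −0.15 and Vpreb1 at −0.14. Control replicate 1, where the 10 genes were high, had higher deviations than floxed replicate 3 for both lists. The same held for T and NK cell markers (0.22 against 0.16). Erythroid and megakaryocyte markers (0.022 against 0.17) and stroma and endothelium markers (−0.056 against 0.0089) went the other way, and stem cell markers were nearly equal. What these differences mean for the 10 genes was not tested.

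For erythroid and megakaryocyte markers the deviation on floxed replicate 3 was 0.17, against −0.20 and −0.16 on the other floxed arrays and 0.022, 0.22 and −0.044 on the controls; 10 of 11 were below 0, with Epor at −0.48, Alas2 at −0.40, Gp9 at −0.20, Car1 at −0.14 and Car2 at −0.023. T and NK cell markers were at 0.16, against −0.33 and −0.16, and 0.22, 0.11 and −0.0070 on the controls. Of these, 6 of 7 were below 0, with Cd4 at −0.63, Prf1 at −0.43, Cd3e at −0.17, Il7r at −0.11 and Nkg7 at 0.075. For stroma and endothelium 9 of 11 were below 0, with Cldn5 at −0.50, Ibsp at −0.22, Runx2 at −0.16 and Emcn at −0.034, and the deviation on floxed replicate 3 was 0.0089. Stem cell markers were at 0.15 on floxed replicate 3 and 0.16 on control replicate 1, with 6 of 10 above 0, among them Slamf1 (0.23) and Mecom (0.12), and with Hlf at −0.020. None of these markers passed in limma. The part of cell composition in the low values of floxed replicate 3 was not tested, and in bulk samples fewer cells of a type and less RNA per cell cannot be told apart.

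**Figure D5:**
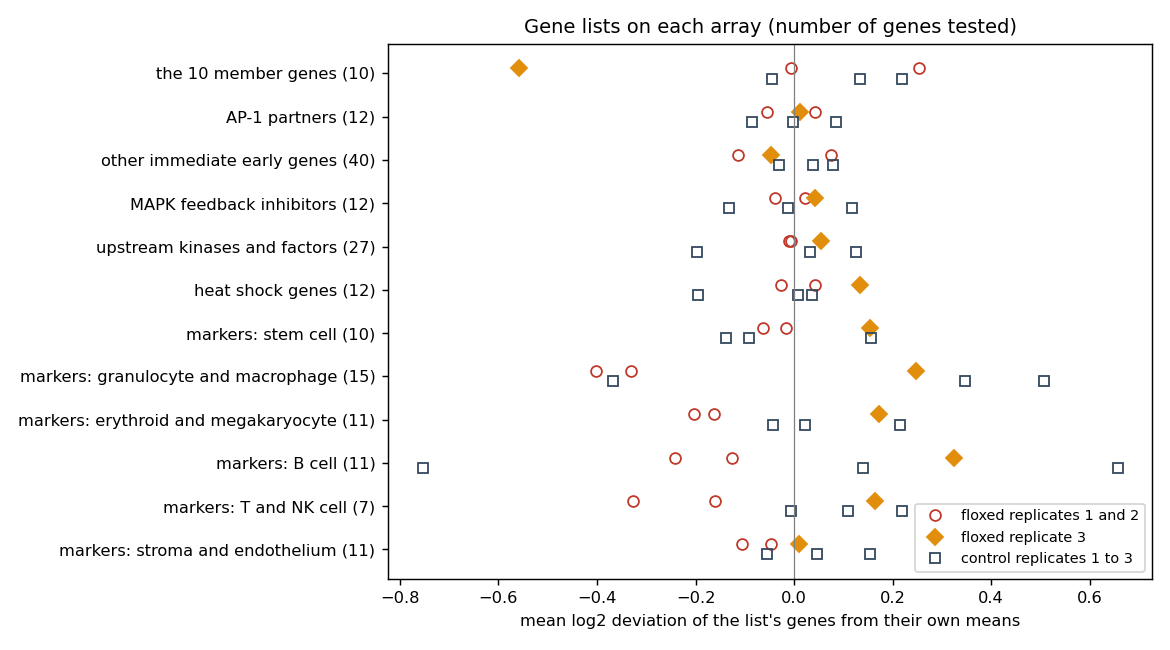
Mean log2 deviation of the genes of each list from their own means on each array, with floxed arrays above control arrays in each row. On floxed replicate 3 (orange diamonds) the 10 genes lie at −0.56 while the other lists lie between −0.046 and 0.32.

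Among 14576 other genes, 32 had an r of at least 0.9 over the 6 arrays to the mean deviation of the 10 genes. The 5 highest with a gene name were Entr1 (0.980), Fra10ac1 (0.972), the kinase gene Ulk3 (0.967), Csad (0.962), which encodes an enzyme of taurine synthesis, and Gsdmd (0.958), which encodes the pore protein of pyroptosis. Fra10ac1 had 8.27, 8.44 and 7.80 log2 on the floxed arrays, against 8.40, 8.34 and 8.39 on the controls. Entr1 spanned 0.20 from lowest to highest array and Fra10ac1 spanned 0.64, against 1.31 for Fos. These genes were the highest of many compared over few arrays, and no test was run on them.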

How the data were processed

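RNA was measured on 6 arrays, 3 floxed and 3 control, grouped by the sample titles. The input was 100 ng of total RNA per array, labelled as biotinylated cRNA per the labels' protocols. The authors deposited log2 expression values per probe set; the log base was taken from the range of the values, 2.44 to 14.53. MAS5 is named, without role or version, per the submitters' processing notes; other steps are not given in the sources used here. No further normalization was applied. Depth has no counterpart on arrays, and their number limits the precision.

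Probe sets with exactly 1 annotated gene (212097 of 241576) were used, with symbols updated through a RefSeq table of GRCm38.p6. Of these, 110361 had a mean of at least 7.60 log2, the median over all probe sets, and the median per gene gave 14586 genes. Both levels were fitted with lmFit and trended eBayes (limma 3.58.1, R 4.3.3). Two-sided p-values were adjusted by Benjamini-Hochberg across every feature fitted, and 0.05 was the threshold. Correlations were tested by exact permutation. The fitting steps were tested on simulated data. Named were the 10 genes, up to 3 genes of smallest p and the 2 of highest mean per list, the 5 genes most like the set, Ctnnb1 and the gate genes; others are named as chosen after their values were seen. The 10 genes and all lists were chosen with earlier results of these data known. Replicate numbers were not used as pairs in the main fit. Same-numbered deviations correlated at 0.20, −0.0036 and −0.24. Deviations within a group of 3 arrays depend on each other, so these values cannot decide if the samples were paired. Alternatives were other normalizations, filters, gene summaries and variance models, array weights, the replicate block and leaving out each array.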

Additional observations from a re-analysis of the deposited data

How the results depend on the processing

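None of the 10 genes and none of their probe sets passed in limma under any alternative run, with a smallest adjusted p of 0.241 for a gene and 0.212 for a probe set. The median log2 fold change of the 10 stayed below 0 under all 16 alternatives, between −0.46 and −0.021, the lowest without floxed replicate 2 and the highest without floxed replicate 3. Single genes changed sign. With array weights the log2 fold change was 0.20 for Fos, 0.16 for Fosb and 0.29 for Jun. Without floxed replicate 3 it was 0.10 for Fos, 0.24 for Fosb, 0.24 for Jun and 0.047 for Jund. With the mean of the probe sets it was 0.051 for Jun and 0.057 for Jund, without control replicate 1 it was 0.16 for Jun, and for Egr2 it was −0.30 with no filter and −0.061 without control replicate 3. Leaving out 1 array gave −0.55 to 0.10 for Fos, −0.55 to 0.24 for Fosb, −0.27 to 0.24 for Jun, −0.29 to 0.047 for Jund and −0.061 to 0.37 for Egr2. The genes below 0 numbered 5 without floxed replicate 3, 6 with array weights and 7 to 10 otherwise. Egr2 was not tested with the filter at the 75th percentile. The median r between the genes was 0.24 with the brightest probe set of each gene, 0.40 with the filter at the 75th percentile, and ran from 0.38 (without floxed replicate 3) to 0.81 when 1 array was left out, an alternative added after the data were seen. The replicate block left the count of genes past the threshold at 0 and changed no other call. Over all genes 0 passed, against 2 with no filter, 1 with the mean of probe sets, 404 with array weights and 0 to 2 without 1 array. Of all probe sets 5 passed, 4 to 5 without 1 array and 0 with the filter at the 75th percentile, which removed dim probe sets. The cause of these shifts was not tested. Signal over background is unknown for all 10 genes.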
